A study of Mus musculus with 10 samples.

Results

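Activated CD8+ T cells either become short-lived killer cells or keep the capacity to renew themselves as memory cells, and a small set of transcription factors holds the second course. Followed here are 10 genes for such factors, chosen by name from the memory and stem cell field: Tcf7, Lef1, Bach2, Foxo1, Foxp1, Id3, Bcl6, Klf2, Satb1 and Myb. They are 10 of 23992 gene symbols in the deposited tables, each read through 1 transcript, the one that collected most reads summed over the libraries. All 10 passed the filter on low counts, and the lowest count of any of them in any library was 107 reads.

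The cells were CD8+ T cells from spleens of C57BL/6N mice, with no further genotype, age or sex used here. All were activated for 48 h on plate-bound anti-CD3 with soluble anti-CD28, each at 2 µg/ml, then pooled, washed and cultured for another 48 h. Each of 5 groups had 2 poly(A) RNA libraries: no cytokine, human IL-2 (100 IU/ml), mouse IL-21 (100 ng/ml), and IL-2 or IL-21 at the same dose together with LDHi. LDHi is NCI-737, an inhibitor of lactate dehydrogenase, the enzyme that closes glycolysis by turning pyruvate into lactate. It was given at 1 µM from the start of activation and again after washing, and no group received it without a cytokine, so an action on activation and an action on the cytokine response cannot be told apart. Whether replicates 1 and 2 were separate mice or cultures is not stated in the labels. The p values thus cover the library-to-library spread alone, and that spread may be technical.

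TCF-1, encoded by Tcf7, and LEF1 are the paired nuclear factors at the end of the Wnt pathway and are needed for self-renewing memory T cells. FOXO1 is the factor that Akt expels from the nucleus when antigen, costimulation or IL-2 signal, and it switches on KLF2, which in turn drives the lymph node homing and exit genes of resting T cells. BACH2 and BCL6 are repressors that hold back the effector programme, and BCL6 and the effector factor Blimp-1 (Prdm1) repress each other. ID3 blocks the DNA binding of E proteins, FOXP1 keeps naive T cells quiescent, SATB1 organises chromatin, and MYB is a factor of stem and progenitor cells.

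The libraries had 45138204 to 62848913 reads as totalled by the authors, of which 59.9 to 79.4% fell on the transcripts kept. The lowest share was that of IL-21 replicate 2, and the replicate spread over all genes was widest for the IL-21 pair (the log2 difference had an SD of 0.76) and narrowest for the IL-2 + LDHi pair (0.30). The 7 CD8 T cell markers summed to 1346 to 1988 RPKM (reads scaled to transcript length and library total) in all 10 libraries. Single markers were less steady than the sum. Cd8b1 measured 495 and 433 RPKM without cytokine, 250 and 282 in IL-2, and 471 and 509 in IL-2 + LDHi. Cd8a measured 268 and 227, 179 and 205, and 288 and 307 in the same groups. Cd3g (353 and 361 against 270 and 286) and Zap70 (70.3 and 79.8 against 56.0 and 58.2) were instead higher in IL-2 than in IL-2 + LDHi. Transcripts of other cells were present at lower levels in group-dependent amounts, and none of the listed markers was at 0 in all libraries. The 6 basophil and mast cell markers summed to 206.9 and 459 RPKM without cytokine, 66.6 and 92.0 in IL-21 and at most 3.36 elsewhere. For 8 listed macrophage, monocyte and granulocyte markers the sums were 168 and 236 without cytokine, 61.4 and 70.4 in IL-21, and 7.14 to 18.6 elsewhere. B cell markers ranged from 5.43 to 21.9, with Ms4a1, Cd79a and Pax5 higher in replicate 1 in 5 of 5 groups. In such bulk RNA, fewer cells of a type and less RNA per cell cannot be told apart.

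Levels are RPKM as the authors computed them, given for replicate 1 and then replicate 2, with group means ± SD (n = 2). Differences are log2 fold changes ± SE from edgeR's quasi-likelihood test with Benjamini-Hochberg adjustment over 14357 genes, and a gene was called at an adjusted p below 0.05. The fold changes rest on TMM scaling of counts and the RPKM on the authors' totals, and the signs of both differed in 10 of the 90 comparisons of a member, 0 of which was called.

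**Figure D1:**
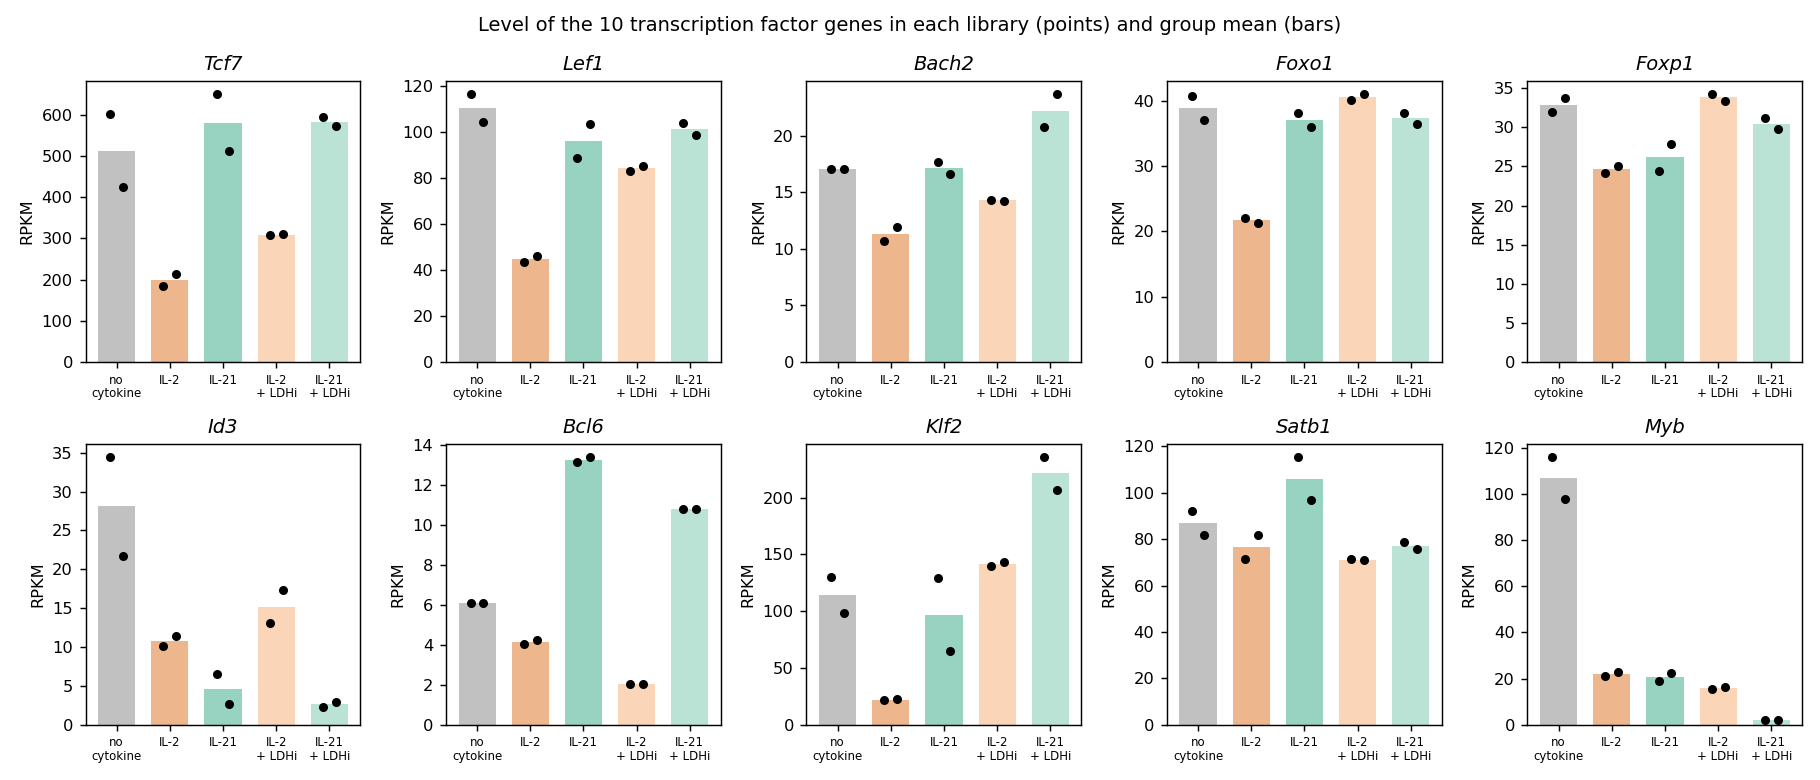
Level in RPKM (vertical axis, from 0, a scale for each gene) of the 10 genes in the 5 groups (horizontal axis). Points are the 2 libraries of a group and bars their mean. Tcf7, Lef1, Bach2, Foxo1 and Klf2 are lowest in IL-2, Bcl6 is highest in IL-21, and Myb falls from 107 RPKM without cytokine to 1.90 in IL-21 + LDHi.

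The first question was how the RNA of these genes differed between IL-2 and no cytokine. Of the 10 genes 9 fell with IL-2, by 0.43 (Foxp1) to 2.41 (Klf2) on the log2 scale, and Satb1 alone was not called. Over all genes 50.5% were called in this comparison, 25.6% higher and 24.8% lower, and the median of the 10 genes was -1.09 against -0.03 over all genes. IL-21 had another profile. Against no cytokine 4 genes were called, Bcl6 and Satb1 higher and Id3 and Myb lower, where 11.5% of all genes were called, 5.65% higher and 5.89% lower. The members' median was 0.04 against -0.01 over all genes.

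Set directly against IL-2, IL-21 gave higher RNA for 7 of the 10 genes (Tcf7, Lef1, Bach2, Foxo1, Bcl6, Klf2, Satb1) and lower RNA for Id3. Over all genes 49.6% were called, 24.9% higher and 24.7% lower, and the members' median was 0.87 against 0.02. These 3 comparisons share libraries and are not independent of each other. The basophil and myeloid marker sums given above differed between the groups in all 3. They also differed for LDHi in IL-21 and for each LDHi group against no cytokine. Their part in the changes of these genes was not tested.

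**Figure D2:**
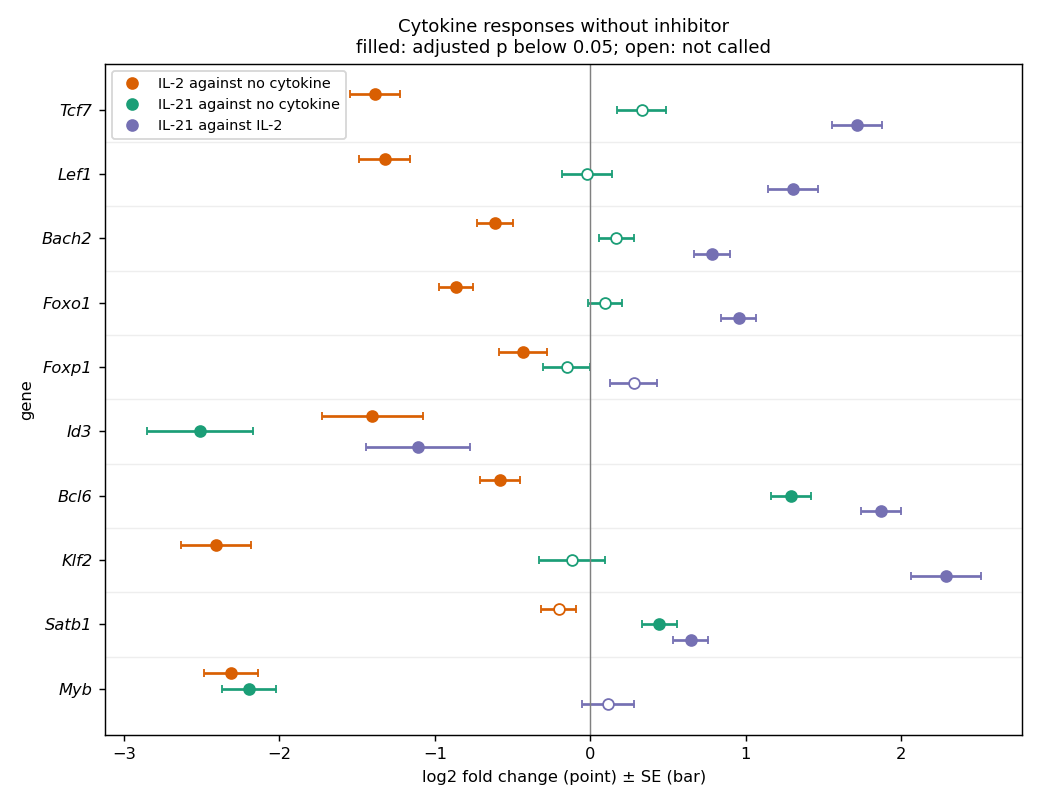
Log2 fold change (horizontal axis, points) with SE (bars) of each gene (vertical axis) for IL-2 against no cytokine, IL-21 against no cytokine and IL-21 against IL-2, with called genes filled. The IL-2 points lie left of 0, to -2.41 for Klf2, while IL-21 against no cytokine lies near 0 except for Bcl6 (1.29), Satb1 (0.44), Id3 (-2.51) and Myb (-2.197).

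The second question was what the inhibitor adds to each cytokine. In IL-2, LDHi was followed by higher Tcf7, Lef1, Foxo1 and Klf2 and by lower Bcl6 and Myb, 6 of 10 genes, where 39.4% of all genes were called, 17.8% higher and 21.6% lower. The members' median was 0.44 against 0.01. The 4 NK cell markers moved with this comparison, from summed levels of 1.97 and 2.43 RPKM in IL-2 to 12.3 and 11.5 with LDHi (Ncr1 from 0.124 and 0.0618 to 4.34 and 3.90), against 0.556 to 4.58 in the other groups, and their part in these changes was not tested. The CD8 sums of the same libraries were 1447 and 1568 RPKM in IL-2 and 1718 and 1811 with LDHi. Within these sums Cd8a and Cd8b1 were higher with LDHi, and Cd3g and Zap70 lower. In IL-21, LDHi was followed by higher Klf2 and lower Satb1 and Myb, 3 of 10, where 31.3% of all genes were called, 11.1% higher and 20.3% lower. The members' median there was -0.03, as over all genes.

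The difference between the inhibitor's effects in IL-21 and in IL-2, tested as an interaction, was called for 5 genes: it was negative for Lef1, Foxo1, Klf2 and Myb and positive for Bcl6. Over all genes 21.7% were called in this interaction, 7.98% positive and 13.8% negative. The members' median was -0.74 against -0.08.

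**Figure D3:**
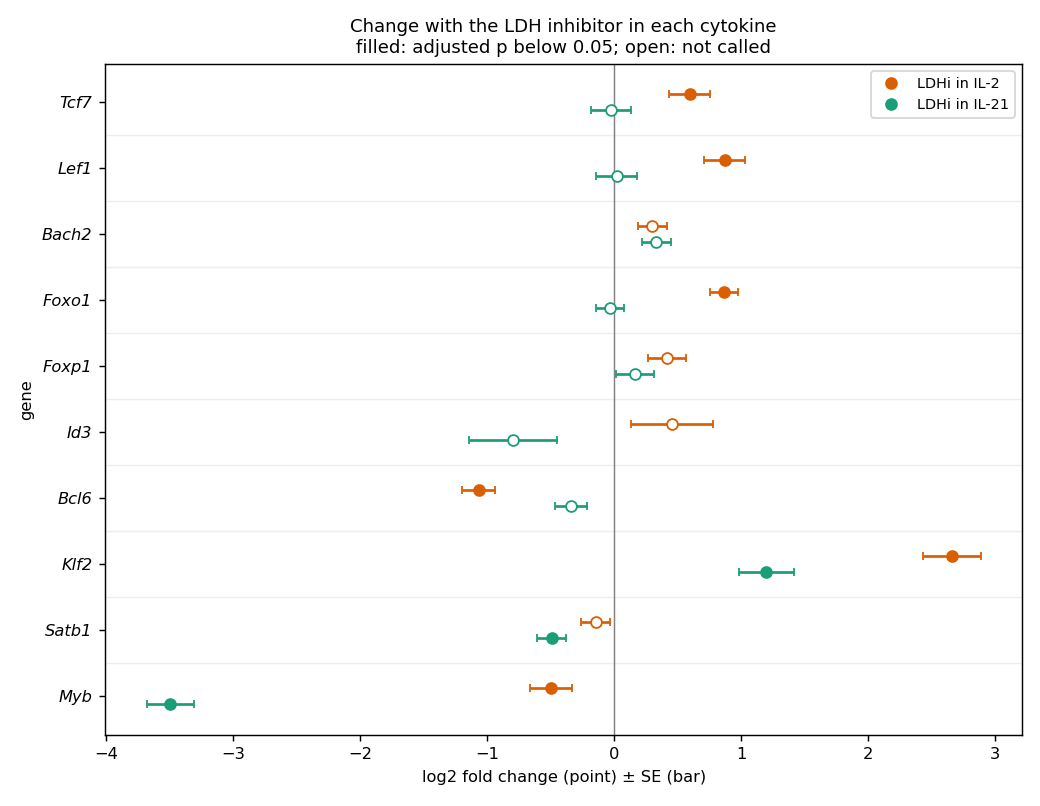
Log2 fold change (horizontal axis, points) with SE (bars) of each gene (vertical axis) with LDHi against the same cytokine alone, in IL-2 and in IL-21, with called genes filled. Foxo1 and Lef1 rise in IL-2 (0.86 and 0.87) and lie at -0.03 and 0.02 in IL-21, Klf2 rises in both, and Myb falls by 3.49 in IL-21.

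With the inhibitor present in both, IL-21 against IL-2 gave higher Tcf7, Bach2, Bcl6 and Klf2 and lower Id3 and Myb, 6 of 10 genes, where 26.1% of all genes were called, 9.38% higher and 16.7% lower. The members' median was 0.37 against 0.01. Against no cytokine, IL-2 + LDHi had 3 genes lower (Tcf7, Bcl6, Myb), where 24.2% of all genes were called, 10.9% higher and 13.3% lower. IL-21 + LDHi against no cytokine had 3 higher (Bach2, Bcl6, Klf2) and 2 lower (Id3, Myb), where 37.1% of all genes were called, 13.5% higher and 23.6% lower.

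Tcf7 (chr11:52246527-52283383, minus strand, mm10) was the most abundant of the 10 per length. It measured 602 and 424 RPKM without cytokine, 186 and 212.6 in IL-2, 650 and 512 in IL-21, 308 and 311 with IL-2 + LDHi, and 594 and 573 in IL-21 + LDHi. Both IL-2 libraries lay below all others and both IL-2 + LDHi libraries next, while the other 3 groups overlapped. Tcf7 fell by 1.38 ± 0.16 with IL-2 (adjusted p = 0.000151), from 513 ± 126 to 199 ± 19.2 RPKM, and was higher in IL-21 than in IL-2 by 1.71 ± 0.16 (adjusted p = 6.52e-05). IL-21 alone gave a difference of 0.33 ± 0.16 from no cytokine that was not called (adjusted p = 0.215, 95% interval -0.03 to 0.69). It was called without replicate 1 of no cytokine, at 0.60 with an adjusted p of 0.0369, and was 0.11 without replicate 2 of no cytokine.

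With LDHi in IL-2, Tcf7 rose by 0.60 ± 0.16 (adjusted p = 0.0162), a call lost without IL-2 replicate 1 (0.123) and without either IL-2 + LDHi library (0.0848 and 0.0805). The level reached, 309 ± 2.26 RPKM, was still 0.79 ± 0.16 below no cytokine on the log2 scale (a log2 difference of -0.79, adjusted p = 0.00702), -0.52 without replicate 1 of no cytokine, and not called without either IL-2 + LDHi library (0.0632 and 0.0666). In IL-21 the inhibitor made a difference of -0.02 ± 0.16 (adjusted p = 0.932), with an interval of -0.38 to 0.34. The effects in both cytokines differed by -0.62 ± 0.22, which was not called (adjusted p = 0.0818) but was with 5 alternatives, DESeq2 among them (0.0310). Under the inhibitor Tcf7 was higher in IL-21 than in IL-2 by 1.10 ± 0.16 (adjusted p = 0.000963).

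Lef1 (chr3:131110297-131224357, plus strand), the partner of TCF-1, measured 116 and 104 RPKM without cytokine, 43.4 and 45.9 in IL-2, 88.7 and 103 in IL-21, 82.9 and 85.3 with IL-2 + LDHi, and 104 and 98.7 in IL-21 + LDHi. By RPKM the order was no cytokine, IL-21 + LDHi, IL-21, IL-2 + LDHi and IL-2, with an overlap between neighbours for IL-21 + LDHi and IL-21. Neither IL-21 (-0.02 ± 0.16, adjusted p = 0.954) nor IL-21 + LDHi (0.002 ± 0.16, adjusted p = 0.994) was called against no cytokine. Lef1 fell by 1.32 ± 0.16 with IL-2 (adjusted p = 0.000208) and was higher by 1.30 ± 0.16 in IL-21 than in IL-2 (adjusted p = 0.000272). LDHi raised it in IL-2 by 0.87 ± 0.16 (adjusted p = 0.00288). The difference that LDHi made in IL-21 was 0.02 ± 0.16 (adjusted p = 0.934, interval -0.34 to 0.38). The interaction of -0.85 ± 0.23 was called (adjusted p = 0.0274), and the call was lost when any library of IL-2, IL-2 + LDHi or IL-21 + LDHi was left out, with adjusted p between 0.0724 and 0.0993.

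Foxo1 (chr3:52268337-52350109, plus strand) separated IL-2 from the rest. Its level was 40.8 and 37.2 RPKM without cytokine, 22.1 and 21.3 in IL-2, 38.2 and 35.9 in IL-21, 40.2 and 41.0 with IL-2 + LDHi, and 38.2 and 36.5 in IL-21 + LDHi. Neighbours in the order overlapped in every group but IL-2, which lay below all other libraries. Foxo1 fell by 0.86 ± 0.11 with IL-2 (adjusted p = 0.00025) and rose by 0.86 ± 0.11 with LDHi in IL-2 (adjusted p = 0.00042). In IL-21 the inhibitor's difference was -0.03 ± 0.11 (adjusted p = 0.857, interval -0.28 to 0.22), and the interaction was -0.89 ± 0.16 (adjusted p = 0.00384). IL-21 exceeded IL-2 by 0.95 ± 0.11 (adjusted p = 0.000174). These 4 calls held under all 20 alternatives.

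Klf2 (chr8:72319062-72321654, plus strand) had the widest response to the inhibitor in IL-2 among the 10 genes. It measured 129.98 and 98.0 RPKM without cytokine, 21.3 and 22.2 in IL-2, 129 and 64.8 in IL-21, 140.1 and 143 with IL-2 + LDHi, and 236 and 206.998 in IL-21 + LDHi. The IL-21 + LDHi libraries were above and the IL-2 libraries below all others, and the IL-21 libraries stood far apart and overlapped those without cytokine. Klf2 fell by 2.41 ± 0.22 with IL-2 (adjusted p = 4.49e-05) and rose by 2.66 ± 0.23 when LDHi was added to IL-2 (adjusted p = 5.32e-05). The IL-2 + LDHi level differed from no cytokine by 0.26 ± 0.21 (adjusted p = 0.438).

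In IL-21 the inhibitor raised Klf2 by 1.20 ± 0.21 (adjusted p = 0.00292), with 0.89 when IL-21 replicate 2 was left out and 1.59 without its replicate 1. The interaction was -1.46 ± 0.30 (adjusted p = 0.00881), and its call was lost with limma on log2(RPKM + 1) (0.0557). IL-21 + LDHi exceeded no cytokine by 1.08 ± 0.21 (adjusted p = 0.00366), the widest rise of IL-21 + LDHi over no cytokine among the 10 genes. It also exceeded IL-2 + LDHi by 0.82 ± 0.21 (adjusted p = 0.0199), a call lost under 6 alternatives, among them those without either library of either group (0.0589 to 0.131) and limma on log2(RPKM + 1) (0.178). IL-21 alone against no cytokine gave -0.12 ± 0.21 (adjusted p = 0.765), and the IL-21 libraries set its sign: it was 0.19 without replicate 2, and -0.51 and called without replicate 1 (adjusted p = 0.047). IL-21 against IL-2 gave 2.29 ± 0.22 (adjusted p = 7.38e-05).

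Foxp1 (chr6:98925342-99522746, minus strand) moved least among the genes that fell with IL-2. It measured 32.0 and 33.7 RPKM without cytokine, 24.2 and 25.1 in IL-2, 24.4 and 27.9 in IL-21, 34.2 and 33.4 with IL-2 + LDHi, and 31.2 and 29.7 in IL-21 + LDHi. The IL-2 and IL-21 libraries lay below all others by RPKM and overlapped each other. IL-21 against no cytokine gave -0.15 ± 0.15, which was not called (adjusted p = 0.563). Its fall of 0.43 ± 0.15 with IL-2 (adjusted p = 0.0393) was lost under 8 of the 20 alternatives, each of which left out 1 library (0.0617 to 0.153). The rise of 0.42 ± 0.15 with LDHi in IL-2 was not called (adjusted p = 0.0559) and was called under 8 alternatives, DESeq2 among them (0.0389).

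Bcl6 (chr16:23965050-23988866, minus strand) was the only member that moved up with IL-21 and down with IL-2. STAT factors, the signal carriers of both cytokines, bind the motif TTCNNNGAA, to which the BCL6 protein's own motif is similar, and the windows before the start sites of the 2 members that hold it are shown for that reason. The 250 bases before each listed start site were searched on both strands for that motif, for the TCF/LEF motif CTTTGA, the FOXO motif GTAAACA and the AP-1 and BACH motif TGANTCA. Of 21 start sites of the 10 genes 3 held the STAT motif, both of Bcl6 and the one of Bach2, as did 7.02% of 32851 promoters of the same length. The TCF/LEF motif was in 4 of 21 sites (1 each of Lef1, Bach2, Foxp1 and Bcl6), against 13.8% of all promoters, and 3.17 and 6.75% of all promoters held the FOXO and the AP-1 motif, which were in none of these windows. Sequences are RefSeq's of GRCm38.p6 (mm10), 5′ to 3′ on the gene's strand, with matches to the STAT and TCF/LEF motifs in capitals. The windows are chr16:23988853-23989102 for the first Bcl6 site, chr16:23981284-23981533 for the second and chr4:32417185-32417434 for Bach2, and the last 2 lie within their genes.
Bcl6 site 1: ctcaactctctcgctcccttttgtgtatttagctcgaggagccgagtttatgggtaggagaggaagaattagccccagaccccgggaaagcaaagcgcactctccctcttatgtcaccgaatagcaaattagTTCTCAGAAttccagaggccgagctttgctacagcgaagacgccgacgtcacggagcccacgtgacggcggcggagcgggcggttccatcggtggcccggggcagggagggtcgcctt
Bcl6 site 2: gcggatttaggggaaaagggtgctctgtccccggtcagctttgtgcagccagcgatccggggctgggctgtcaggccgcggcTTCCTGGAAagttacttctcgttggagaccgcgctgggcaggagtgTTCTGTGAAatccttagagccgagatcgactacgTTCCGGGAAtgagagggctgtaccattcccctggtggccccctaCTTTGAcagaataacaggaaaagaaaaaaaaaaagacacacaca
Bach2 site 1: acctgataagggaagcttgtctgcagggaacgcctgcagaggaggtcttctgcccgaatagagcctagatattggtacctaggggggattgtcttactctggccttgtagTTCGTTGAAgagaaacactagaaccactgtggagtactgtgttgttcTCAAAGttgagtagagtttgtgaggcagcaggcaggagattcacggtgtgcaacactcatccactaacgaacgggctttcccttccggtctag
The second Bcl6 window holds 3 STAT matches, and the first Bcl6 window and the Bach2 window 1 each. A match is a description of letters and was not tested for binding.

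The level of Bcl6 was 6.10 and 6.08 RPKM without cytokine, 4.02 and 4.22 in IL-2, 13.1 and 13.4 in IL-21, 2.01 and 2.03 with IL-2 + LDHi, and 10.8 and 10.8 in IL-21 + LDHi. The 5 groups did not overlap at any step of their order, which ran from IL-21 through IL-21 + LDHi, no cytokine and IL-2 to IL-2 + LDHi. Bcl6 rose by 1.29 ± 0.13 with IL-21 (adjusted p = 0.000535), a call lost when only the groups compared were fitted (0.0683), and fell by 0.58 ± 0.13 with IL-2 (adjusted p = 0.00491). IL-21 exceeded IL-2 by 1.87 ± 0.13 without inhibitor (adjusted p = 1.41e-05) and by 2.59 ± 0.14 with it (adjusted p = 1.32e-06).

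LDHi lowered Bcl6 in IL-2 by 1.07 ± 0.13 on the log2 scale (a log2 change of -1.07, adjusted p = 0.00034), against the direction of Tcf7, Lef1, Foxo1 and Klf2. In IL-21 the difference was -0.34 ± 0.13, not called (adjusted p = 0.0676) but called with DESeq2 (0.0497) and without IL-21 replicate 1 (-0.49, adjusted p = 0.00513), while it was -0.17 without IL-21 replicate 2 (adjusted p = 0.26). The interaction of 0.72 ± 0.18 was called (adjusted p = 0.0208), and lost under 7 alternatives (0.0504 to 0.0868), namely scaling by library size alone and the 6 fits without 1 library of IL-2, IL-2 + LDHi or IL-21 + LDHi. Against no cytokine Bcl6 was lower in IL-2 + LDHi, at -1.65 ± 0.13 (adjusted p = 6.99e-05), and higher in IL-21 + LDHi by 0.95 ± 0.13 (adjusted p = 0.000398).

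Bach2 (chr4:32238413-32586109, plus strand) measured 17.1 and 17.1 RPKM without cytokine, 10.6 and 11.96 in IL-2, 17.7 and 16.6 in IL-21, 14.3 and 14.3 with IL-2 + LDHi, and 20.7 and 23.6 in IL-21 + LDHi. It was highest in IL-21 + LDHi, with both libraries above all others, and lowest in IL-2, while IL-21 and no cytokine overlapped. Bach2 fell by 0.61 ± 0.11 with IL-2 (adjusted p = 0.00199) and was higher in IL-21 than in IL-2 by 0.78 ± 0.11 (adjusted p = 0.000637). IL-21 + LDHi exceeded IL-2 + LDHi by 0.81 ± 0.11 (adjusted p = 0.000745). It exceeded no cytokine by 0.50 ± 0.11 (adjusted p = 0.00762), a call lost without IL-21 + LDHi replicate 2 (0.0673) and with limma on log2(RPKM + 0.1) (0.0532). The inhibitor's own differences, 0.30 ± 0.11 in IL-2 (adjusted p = 0.0647) and 0.33 ± 0.11 in IL-21 (adjusted p = 0.0535), were not called. DESeq2 called both (0.0482 and 0.0253).

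Id3 (chr4:136143822-136145392, plus strand) was highest without cytokine. Its level was 34.4 and 21.8 RPKM there, 10.1 and 11.4 in IL-2, 6.51 and 2.59 in IL-21, 13.0 and 17.3 with IL-2 + LDHi, and 2.29 and 2.93 in IL-21 + LDHi. The IL-21 and IL-21 + LDHi libraries overlapped and lay below all others. Id3 fell by 1.40 ± 0.33 with IL-2 (adjusted p = 0.00647), a call lost without replicate 1 of no cytokine (0.0527) or IL-2 replicate 1 (0.0571). With IL-21 it fell by 2.51 ± 0.34 (adjusted p = 0.00279), not called when only those groups were fitted (0.0859).

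IL-21 against IL-2 gave -1.11 ± 0.33 for Id3 (adjusted p = 0.0222), a value that single IL-21 libraries set: it was -0.70 without replicate 2, and no longer called (0.0652), and -1.73 without replicate 1. It was also not called when an IL-2 library was dropped (0.0678 for replicate 1, 0.1 for replicate 2) or when only those groups were fitted (0.0652). Under the inhibitor Id3 was lower in IL-21 than in IL-2 by a log2 difference of -2.36 ± 0.35 (adjusted p = 0.00103), and IL-21 + LDHi stood at -3.30 ± 0.36 against no cytokine (adjusted p = 0.000114). The inhibitor's own differences of 0.46 ± 0.32 in IL-2 (adjusted p = 0.297) and -0.79 ± 0.35 in IL-21 (adjusted p = 0.114) were not called. Without IL-21 replicate 2 the latter was -1.21 and called (0.0101), and without its replicate 1 it was -0.17 and not called.

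Satb1 (chr17:51736187-51833290, minus strand) stayed between 71.0 and 115 RPKM in all libraries. It measured 92.0 and 81.8 RPKM without cytokine, 71.3 and 81.7 in IL-2, 115 and 96.9 in IL-21, 71.2 and 71.0 with IL-2 + LDHi, and 78.7 and 75.6 in IL-21 + LDHi. Both IL-21 libraries were above all others, and IL-2 and IL-21 + LDHi overlapped. IL-21 exceeded IL-2 by 0.65 ± 0.11 (adjusted p = 0.00163). The rise of 0.44 ± 0.11 over no cytokine (adjusted p = 0.037) was lost under 14 of 20 alternatives (0.0507 to 0.348). LDHi in IL-21 gave a fall of 0.49 ± 0.11 (adjusted p = 0.01), lost under 4 alternatives (0.0523 to 0.0901), among them the fits without either IL-21 + LDHi library. In IL-2 the inhibitor's difference was -0.14 ± 0.11 (adjusted p = 0.34), and IL-2 itself gave -0.20 ± 0.11 (adjusted p = 0.164), called when scaled by library size alone (0.0271).

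Myb (chr10:21124930-21160984, minus strand) had the widest range of the 10 genes. It measured 116 and 98.1 RPKM without cytokine, 21.0 and 22.6 in IL-2, 18.9 and 22.3 in IL-21, 15.6 and 16.2 with IL-2 + LDHi, and 1.82 and 1.98 in IL-21 + LDHi, the last from 338 and 375 reads. The libraries without cytokine lay above and those of IL-21 + LDHi below all others, and IL-2 and IL-21 overlapped. Myb fell by 2.31 ± 0.17 with IL-2 (adjusted p = 1.49e-05) and stood at -2.197 ± 0.17 in IL-21 against no cytokine (adjusted p = 0.00015).

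LDHi in IL-21 lowered Myb further, at -3.49 ± 0.19 (adjusted p = 2.38e-06), from 20.6 ± 2.41 to 1.90 ± 0.11 RPKM. In IL-2 its change was -0.50 ± 0.17 (adjusted p = 0.0413), a call lost under 7 alternatives (0.0654 to 0.173), 6 of which left out a library of IL-2, IL-2 + LDHi or IL-21 + LDHi. The interaction of -3.00 ± 0.24 (adjusted p = 7.05e-05) and the difference of IL-21 + LDHi from IL-2 + LDHi, -2.88 ± 0.18 (adjusted p = 4.8e-06), were called under all 20 alternatives. Against no cytokine IL-2 + LDHi stood at -2.81 ± 0.18 (adjusted p = 2.44e-05) and IL-21 + LDHi at -5.69 ± 0.21 (adjusted p = 6.15e-07).

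Myb is also made by blood cell progenitors, and the basophil and myeloid marker sums were likewise highest without cytokine and lowest in IL-21 + LDHi. Their part in the Myb levels was not tested. Between IL-2 and IL-21, Myb overlapped (21.0 to 22.6 and 18.9 to 22.3 RPKM) where the basophil sums were 2.91 and 3.36 against 66.6 and 92.0. The CD8 marker sums in IL-21 + LDHi were 1493 and 1497 RPKM.

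The 2 relatives of Myb that were on the list of related factors fell in IL-21 + LDHi too. Mybl2, a gene of dividing cells, measured 4.83 and 3.83 RPKM in IL-21 and 0.716 and 0.899 with LDHi, a change of -2.45 ± 0.17 (adjusted p = 1.1e-05). It differed from Myb in IL-2, where it was higher than without cytokine by 1.67 ± 0.16 (adjusted p = 5.37e-05). Mybl1 followed at lower levels, with a fall of 2.12 ± 0.36 when LDHi was added to IL-21 (adjusted p = 0.00212), from 90 and 114 to 27 and 23 reads. Like Mybl2, Mybl1 was called higher in IL-2 than without cytokine, at 2.61 and 1.96 against 0.369 and 0.485 RPKM.

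**Figure D4:**
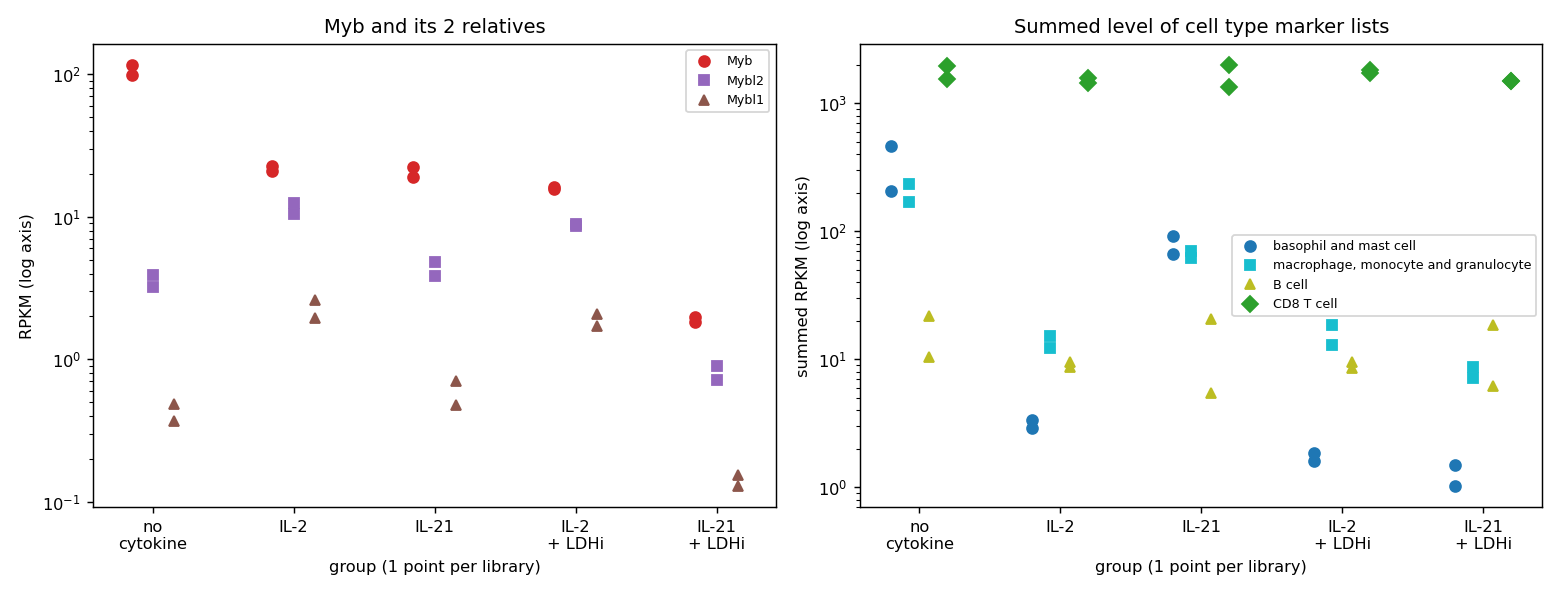
Left, RPKM (log axis) of Myb, Mybl2 and Mybl1 in each library, and right, summed RPKM (log axis) of 4 marker lists, by group (horizontal axis, 1 point per library). Myb and its relatives are lowest in IL-21 + LDHi, Mybl2 is highest in IL-2 while Myb is highest without cytokine, and the CD8 T cell sum stays between 1346 and 1988.

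Genes known as targets of FOXO1 and KLF2, 12 of 12 tested, were examined next. A factor's RNA does not give its activity, and the activity of FOXO1 and KLF2 was not measured here. With IL-2 9 were lower and 1 higher (median -1.01), against 24.8 and 25.6% of all genes, and the higher count was 0 without either library of no cytokine or without IL-2 replicate 1. LDHi in IL-2 raised 5 and lowered 1 (median 0.43), against 17.8 and 21.6% of all genes. IL-21 against IL-2 had 7 higher and 1 lower, against 24.9 and 24.7% of all genes, and the higher count was smaller without IL-2 replicate 1. LDHi in IL-21 had 2 higher and 1 lower (median 0.29), against 11.1 and 20.3% of all genes. The higher count was 4 without either IL-21 library and the lower count 0 without IL-21 + LDHi replicate 1. IL-21 + LDHi against no cytokine had 5 higher and 5 lower, against 13.5 and 23.6% of all genes. The lower count was smaller when no cytokine replicate 1 or either IL-21 + LDHi library was left out. The list thus moved in both directions in that last comparison.

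S1pr1, the receptor by which T cells leave lymph nodes, fell by 1.92 ± 0.19 with IL-2 (adjusted p = 6.96e-05) and rose by 1.66 ± 0.19 with LDHi in IL-2 (adjusted p = 0.000254), from a mean of 33.8 to 109.8 RPKM, with 222 in IL-21 + LDHi. Btg1, an antiproliferative gene, fell by 1.64 ± 0.16 with IL-2 (adjusted p = 4.99e-05) and was 2.19 ± 0.16 higher in IL-21 than in IL-2 (adjusted p = 1.7e-05).

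A list drawn up as opposing effector factors followed, 8 of 8 tested: Prdm1, Tbx21, Zeb2, Irf4, Batf, Eomes, Runx3 and Tox. Being listed does not mean that each of them opposes the memory programme. With IL-2 3 were higher (Irf4, Prdm1, Runx3) and 2 lower, where 25.6% of all genes were higher and 24.8% lower. The lower count was 0 without IL-2 replicate 1, and 1 without IL-2 replicate 2 or either library of no cytokine or of IL-2 + LDHi. In IL-2, LDHi lowered 4 and raised 2, Eomes and Tox (median -0.73), against 21.6 and 17.8% of all genes. The higher count was smaller when any 1 library of IL-2 or IL-2 + LDHi was left out. In IL-21, LDHi lowered 5 and raised 1, Tox (median -1.61), against 20.3 and 11.1% of all genes. The call of that rise was lost without IL-21 + LDHi replicate 1. Irf4, a factor induced by antigen receptor signals, rose by 2.77 ± 0.19 with IL-2 (adjusted p = 9.65e-06), from a mean of 4.67 to 32.2 RPKM. It fell with LDHi, at -2.99 ± 0.19 in IL-2 (adjusted p = 1.44e-05) and -3.68 ± 0.21 in IL-21 (adjusted p = 3.08e-06).

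Prdm1, the gene of the BCL6 antagonist Blimp-1, rose by 1.83 ± 0.18 with IL-2 (adjusted p = 6.39e-05) and changed by -1.67 ± 0.18 with LDHi in IL-2 (adjusted p = 0.000179), so that both Prdm1 and Bcl6 were reduced by LDHi in the presence of IL-2. With LDHi in IL-21 Prdm1 changed by -2.65 ± 0.20 (adjusted p = 1.63e-05). Tbx21, the gene of the effector factor T-bet, fell by 3.88 ± 0.27 with LDHi in IL-21 (adjusted p = 9.61e-06), from a mean of 16.2 to 1.11 RPKM, and its interaction was -3.28 ± 0.34 (adjusted p = 0.000285).

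**Figure D5:**
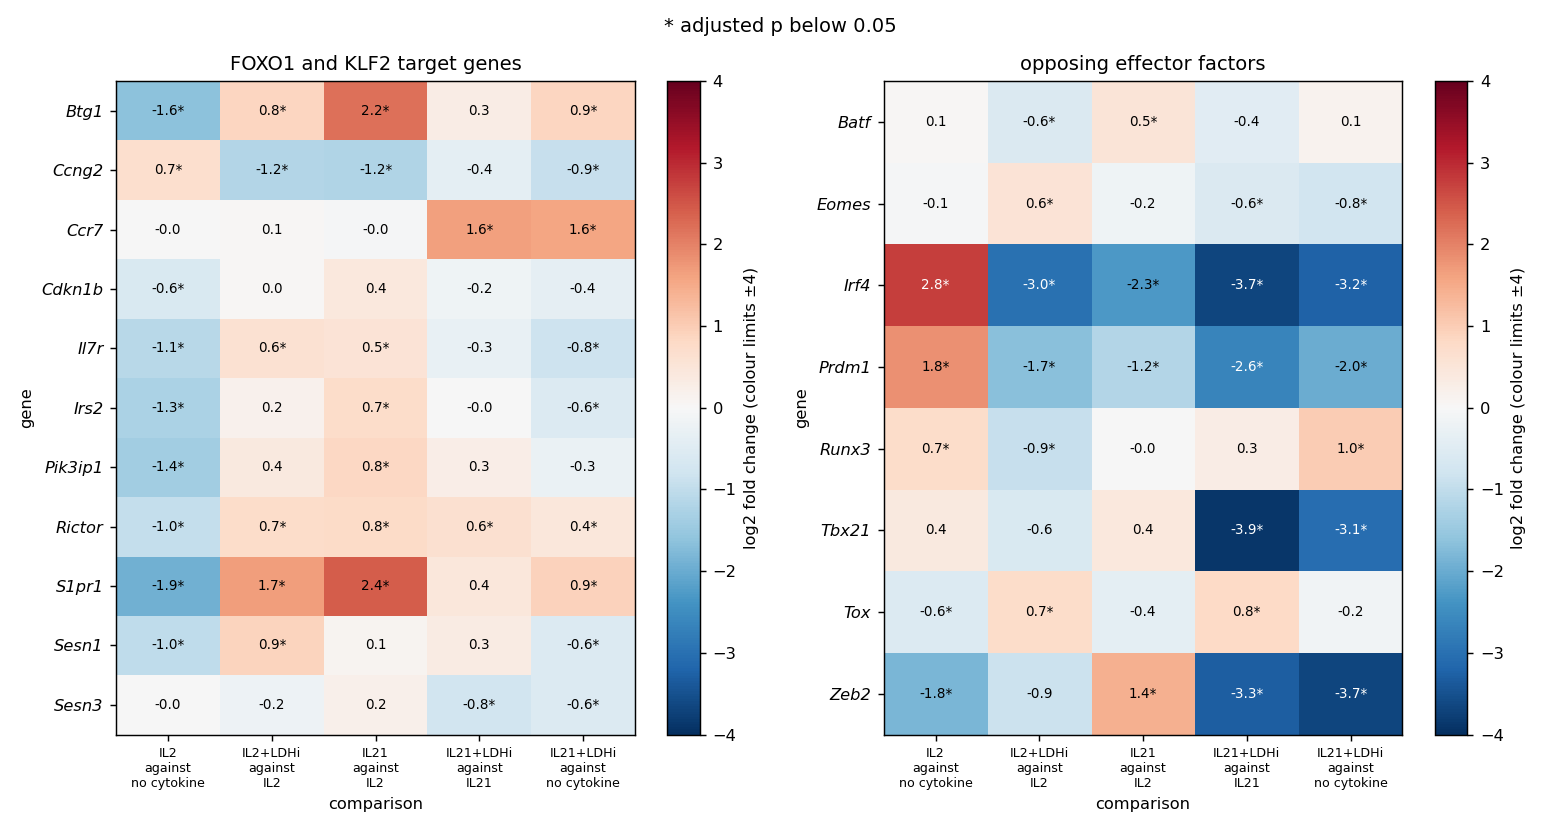
Log2 fold change (colour and printed value, asterisk where called) of 11 of the FOXO1 and KLF2 target genes (left) and the 8 genes listed as opposing effector factors (right) in 5 comparisons (horizontal axis). With IL-2, 8 of the 11 targets plotted are called lower. With LDHi in IL-21, 5 of the 8 factors on the right are called lower, with Tbx21 at -3.88.

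The other lists bear on the partners of single members. Of 10 TCF/LEF partners and corepressors, IL-2 lowered 4 and raised 1 (median -0.22), where 24.8% of all genes were lower and 25.6% higher, and the higher count was 0 in the 8 fits without 1 library of a group other than IL-21. LDHi in IL-2 raised 3 and lowered 2 (median 0.23), against 17.8 and 21.6% of all genes. Axin2, a Wnt target gene, fell by 1.08 ± 0.12 with IL-2 (adjusted p = 0.000114) and rose by 1.46 ± 0.12 with LDHi in IL-2 (adjusted p = 4.82e-05), as Tcf7 and Lef1 did. Tle4, a corepressor that TCF-1 recruits, fell by 0.91 ± 0.10 and rose by 0.86 ± 0.10 in the same comparisons (adjusted p = 0.000119 and 0.000284). Its relative Tle6 went the other way with LDHi in IL-2 at -3.75 ± 0.30 (adjusted p = 4.21e-05), at a low level of 1.36 to 0.102 mean RPKM. Axin2 was also called higher with LDHi in IL-21, by 0.52 to 0.71 over the 20 alternatives, where Tcf7 and Lef1 were not called. That call of Axin2 was lost when only those groups were fitted (adjusted p = 0.0544).

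Of the E proteins and other ID family genes 5 of 6 passed the filter. LDHi in IL-21 lowered 3 of them, against 20.3% of all genes, and 0 without IL-21 + LDHi replicate 2. Id2, the counterpart of Id3 in effector cells, rose with IL-21 by 2.13 ± 0.25 (adjusted p = 0.00118), from a mean of 47.8 to 188 RPKM, where Id3 fell. Among 13 relatives of these factors IL-2 raised 4 and lowered 4, against 25.6 and 24.8% of all genes. Klf3 moved like Klf2, at -2.15 ± 0.23 with IL-2 (adjusted p = 9.01e-05) and 2.28 ± 0.23 with LDHi in IL-2 (adjusted p = 0.000122). Of the 4 BCL6 corepressors Bcorl1 rose with IL-2 by 0.83 ± 0.16 (adjusted p = 0.00245) and fell with LDHi in IL-2 by 1.14 ± 0.16 (adjusted p = 0.000725), and Ncor1 and Bcor were not called in either. Among the IL-2 calls above Foxp3, a relative of Foxp1 and the defining factor of regulatory T cells, was higher, at 0.488 and 1.23 RPKM in IL-2 and 0.259 and 0.168 without cytokine. The 4 CD4 and regulatory T cell markers, which include it, summed to 12.9 and 12.2 RPKM in IL-2, 12.6 and 11.8 in IL-2 + LDHi and at most 4.66 elsewhere, and their part was not tested. Zbtb7b made up most of the IL-2 sum (9.28 and 8.82 RPKM), Foxp3 was higher in IL-2 + LDHi (4.10 and 4.10) than in IL-2, and Cd4 overlapped between IL-2 and no cytokine.

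Surface genes of memory and stem-like cells, 9 tested, moved mostly down with LDHi in IL-21. There the inhibitor lowered 6 and raised 1 (median -1.65), against 20.3 and 11.1% of all genes. In IL-2 it raised 2 and lowered 2 (median 0.22), against 17.8 and 21.6% of all genes, and raised 1 without IL-2 replicate 1 or either IL-2 + LDHi library. Il6ra, a receptor chain lost by effector cells, fell by 4.15 ± 0.22 with IL-2 (adjusted p = 4.17e-06) and rose by 4.46 ± 0.22 with LDHi in IL-2 (adjusted p = 8.25e-06) and by 1.54 ± 0.19 with LDHi in IL-21 (adjusted p = 0.000358). Cxcr5, the follicle homing receptor, changed by -2.48 ± 0.25 with LDHi in IL-21 (adjusted p = 9.28e-05), as Myb did. Ly6a, which encodes Sca-1, rose by 2.85 ± 0.15 with IL-21 (adjusted p = 1.81e-05) and fell by 2.39 ± 0.15 with LDHi in IL-2 (adjusted p = 1.36e-05). Ly6a was also called higher with IL-2 than without cytokine, by 1.78 to 2.05 over the 20 alternatives.

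The genes most like each member across the 10 libraries were sought among 7747 tested genes with a mean of at least 5 RPKM, by the Pearson correlation of log2(RPKM + 1), as a description without a test since all genes share the libraries, their depth and their groups. For Tcf7 these were Atp5sl (0.98) and Ppp1r9b (0.98), and for Lef1 Vamp2 (0.99) and Ttc17 (0.98). For Foxo1 they were Ttc13 (0.99) and Arglu1 (0.98), for Klf2 Mir142 (0.99) and Ikbkb (0.99), and for Foxp1 Skil (0.96). Bcl6 was followed by Plcg2 (0.97) and Skap2 (0.97), Bach2 by A930005H10Rik (0.99) and Setd7 (0.97), and Id3 by Mpp1 (0.99) and Aff1 (0.99). Satb1 had the least alike neighbours, Zmynd8 (0.95) and Hdac8 (0.89), and for Myb they were Fyb (0.99) and Cxcr5 (0.98).

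Several transcripts were listed for Lef1, Foxp1, Satb1 and Myb, and the others held 90.5 to 100.2% of the reads of the one kept, so isoforms could not be told apart. Exons of another gene on the opposite strand overlap those of Lef1, Bach2, Foxo1, Bcl6, Satb1 and Myb in GENCODE vM21. Whether the authors counted by strand is not given in these sources, so reads of such partners cannot be separated from these 6 genes. On the same strand, exons of other annotated genes overlap those of Foxp1 (Gm20696 and Gm49348) and Satb1 (Gm36931). Counting by strand would not separate those reads.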

How the data were processed

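RNA of 10 libraries, 2 in each of 5 groups, was sequenced on a HiSeq3000 after a Kapa mRNA HyperPrep preparation, per the labels' protocols. The deposited tables give, for each RefSeq transcript, the read count made by the authors and the RPKM that the authors computed from it with the transcript length and a library total. Per the submitters' processing notes, TopHat2 2.2.1, Bowtie2 2.2.6, SAMtools 0.1.8, bedtools 2.25.0, edgeR and mm10 were used.

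The tables list 31682 transcripts of 23992 symbols, and each symbol was represented by its transcript of highest summed read count. Counts were tested with edgeR 4.0.16 (R 4.3.3): genes were kept by filterByExpr with a count of 10 and a total of 15 as minima, scaled by TMM and fitted by robust quasi-likelihood over all 10 libraries, 1 coefficient per group, with a common biological coefficient of variation of 0.171. The 9 comparisons were two-sided, with Benjamini-Hochberg adjustment over 14357 genes. Intervals are 95% intervals of a log2 fold change. Alternatives were RLE scaling, library size alone, no filter, a filter of RPKM 1 in 2 libraries, the longest transcript, a replicate block, only the groups compared, limma 3.58.1 on log2(RPKM + 1) and log2(RPKM + 0.1), DESeq2 1.42.0 (an adjusted p was NA for 557 results), and each library left out. The fit was tested on simulated data.

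The members, the 7 lists (62 genes), the markers and the alternatives were chosen with earlier results of these data known, and no list was tested as a set. Named genes are all members, up to 3 genes of a list by p (all of a list under 5 genes), and the 2 genes most like each member; some genes under this rule are not reported here. Runx3, Eomes, Tox and Foxp3 were named after their values were seen. Tables and figures used Python 3.11.15, pandas 2.3.3, numpy 2.4.6 and matplotlib 3.10.9.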

Additional observations from a re-analysis of the deposited data

Results flagged for a closer look

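The change with LDHi differed between IL-21 and IL-2, by the interaction test of edgeR over all 10 libraries, for 5 of the 10 genes, where 21.7% of all genes were called. The difference, IL-21 minus IL-2 on the log2 scale, was -0.85 ± 0.23 for Lef1 (adjusted p = 0.0274), -0.89 ± 0.16 for Foxo1 (adjusted p = 0.00384), -1.46 ± 0.30 for Klf2 (adjusted p = 0.00881) and -3.00 ± 0.24 for Myb (adjusted p = 7.05e-05), and it was 0.72 ± 0.18 for Bcl6 (adjusted p = 0.0208). Those of Foxo1 and Myb were called under all 20 alternatives. For Tcf7, Id3 and Satb1 the differences were -0.62 ± 0.22 (adjusted p = 0.0818), -1.25 ± 0.47 (adjusted p = 0.0933) and -0.35 ± 0.16 (adjusted p = 0.156), and were not called. That of Id3 was called with DESeq2 (0.0435) and without IL-21 replicate 2 (-1.66, adjusted p = 0.00811), and was -0.63 without IL-21 replicate 1. That of Tcf7 was called with 5 alternatives and that of Satb1 with scaling by library size alone (0.0482).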

How the results depend on the processing

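Of 49 called results of the 10 genes 34 kept their call and direction under all 20 alternatives and 15 lost it under at least 1, and 0 reversed. Of 120 called results of the named list genes 84 kept their call under all alternatives, and Prdm1's interaction turned to 0.13 with limma on log2(RPKM + 1). The alternatives were compared for 70 of the 90 results of the 10 genes, all called ones and part of the uncalled ones. Among the uncalled results so compared, the sign changed for LDHi in IL-21 for Tcf7 (0.015 with either limma fit), Lef1 (-0.00202 with library size alone) and Foxo1 (0.0098 and 0.01004 with limma). With 1 library left out these ranged from -0.0565 to 0.0168 for Tcf7, from -0.212 to 0.304 for Lef1 and from -0.129 to 0.0788 for Foxo1, and Klf2 in IL-21 against no cytokine ranged from -0.507 to 0.19.

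Fitting only the groups compared called 1 member (4 in the full fit) and 91 genes (1657) for IL-21 against no cytokine, 4522 genes (7123) for IL-21 against IL-2, 9070 (5657) for LDHi in IL-2, 2259 (4500) for LDHi in IL-21, 7352 (3741) when the cytokines were compared under LDHi, and 5 members (3) for IL-2 + LDHi against no cytokine. DESeq2 called 5 members (3) for LDHi in IL-21 and 7 (3) for IL-2 + LDHi against no cytokine.

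With 1 library left out, members and all genes called ranged from 7 to 9 and 4959 to 8911 (IL-2 against no cytokine), 3 to 5 and 749 to 3967 (IL-21 against no cytokine), 7 to 10 and 4511 to 8370 (IL-21 against IL-2), 4 to 8 and 3113 to 7326 (LDHi in IL-2), 2 to 6 and 2453 to 6660 (LDHi in IL-21), 5 to 8 and 2056 to 5493 (IL-21 + LDHi against IL-2 + LDHi), 3 to 6 and 1742 to 5201 (interaction), 2 to 7 and 1556 to 5192 (IL-2 + LDHi against no cytokine), and 4 to 6 and 3539 to 6861 (IL-21 + LDHi against no cytokine). Without IL-21 replicate 2, 6 members (3) were called for LDHi in IL-21 and 7 (3) for IL-2 + LDHi against no cytokine.

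Scaling by library size alone shifted the median of all genes by -0.14 in IL-2 against no cytokine, 0.12 for LDHi in IL-2 and -0.14 in the interaction, and the share of calls that were higher from 48.9 to 37.2% for IL-21 against no cytokine, from 45.2 to 56.3% for LDHi in IL-2 and from 36.7 to 25.3% in the interaction. No label ties the replicate numbers to a shared source, and same-numbered deviations correlated at -0.147 to 0.483, above 0.1 in 3 of 10 pairs of groups (0.483 for no cytokine and IL-21), so the samples were not treated as paired. With the number as a block 2 results crossed the threshold, Satb1 in IL-21 against no cytokine (0.0548) and Bach2 with LDHi in IL-21 (0.0493). Of 126 list counts 1 (longest transcript) to 38 (only the groups compared) moved by over 1.5 times in a single alternative. With 2 libraries a group, an uncalled difference does not show that levels are alike.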
